A study of Mus musculus with 30 samples.

Results

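Monocytes and the macrophages that arise from them are followed here through 38 genes in the RNA of blood platelets and of peripheral blood mononuclear cells (PBMCs). The genes were taken by symbol from a written list, after the Ensembl identifiers of the count tables had been matched to mouse gene symbols, and all 38 were found among the 54532 genes of each table. They were read in 7 groups by role, with the genes of classical monocytes (Ly6c2, Fn1) and of nonclassical monocytes (Treml4, Ace, Cd300e) kept apart.

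The animals were female C57BL/6 mice of 6 to 8 weeks that carried no engineered allele. C group received 100 μl of Hank's balanced salt solution (HBSS) under the skin of the right flank. S group received 2000 B16F10 cells, a mouse melanoma line of C57BL/6 origin, in the same volume, and O group received 100000 of these cells. Blood was drawn on day 14, when O group had palpable tumors and S group had none that could be seen, and each library was made from RNA pooled over several mice. By the paper, most mice given 2000 cells stayed free of visible tumors, so S group pools held some that may never have formed one. The pools of O group held 3 to 5 mice in both tissues, those of C group and S group 4 to 5 mice in PBMCs, and those of platelets 5 to 10 mice in C group and about 10 in S group. Each group and tissue had 5 libraries, 30 in all, and every SD and P value below describes the spread between pools and not between mice.

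Monocytes develop in the bone marrow under the control of the growth factor receptor encoded by Csf1r and of the transcription factors PU.1 (Spi1), C/EBPα (Cebpa), C/EBPβ (Cebpb) and KLF4 (Klf4). Classical monocytes of the mouse carry much Ly6C on their surface and are drawn into inflamed tissue, where they can become macrophages or dendritic cells. Nonclassical monocytes carry little Ly6C, arise largely from classical ones and patrol the inner wall of vessels. Platelets have no nucleus, and the RNA they hold is inherited from the megakaryocyte or taken up from elsewhere, while a platelet pellet can also hold a few white cells.

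Total counts on genes were 12259036 to 25360080 per platelet library and 13390983 to 15973449 per PBMC library, and the 38 genes together took 15265 to 67512 counts of a platelet library and 103989 to 201443 of a PBMC library. Levels are given as CPM, counts relative to the library total, after TMM normalization, a scaling by which most genes keep the same level across libraries. The summed level of 10 platelet markers was 8250 to 46600 CPM in platelets and 722 to 10200 CPM in PBMCs. Platelet libraries held markers of T cells (153 to 371 CPM over 10 genes), B cells (719 to 2480 CPM over 10 genes), neutrophils (151 to 3820 CPM over 12 genes) and NK cells (33.5 to 130 CPM over 8 genes), and no gene of these lists was at 0 in every library. Hemoglobin genes took 4.02% to 39.0% of the counts of a platelet library and 3.23% to 24.5% of a PBMC library. PBMC libraries stood apart by their neutrophil markers, which reached 7400 CPM in O group replicate 1 against a median of 860 CPM over all 15.

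Reads of near-identical copies limit a few genes. Of the 50-base stretches of Sirpb1c transcripts, 46.1% also occur in another gene, mostly Sirpb1b, as do 15.4% of those of Lyz2 (shared with Lyz1), 14.4% of those of Ly6c2 (Ly6c1), 10.5% of those of Ms4a6c (mostly Ms4a6b) and 8.02% of those of Itgax (Itgad). Csf1r, Cebpb and Gngt2 overlap a protein-coding gene on the opposite strand, and whether the reads were counted by strand is not given in the sources used here. The levels of these 8 genes are uncertain to that extent. Fn1, Cebpa, Ace, Ms4a6c, Emilin2, Plbd1 and Adgre4 overlap a noncoding or provisional transcript or a pseudogene on the opposite strand and carry the same limit.

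Before the values, the promoters of 4 of the genes are shown, 1 for the classical group, 2 for the nonclassical group and 1 for the complement group, since PU.1 binds a purine-rich core and is itself among the 38 genes. The stretches lie directly upstream of the start site, are written 5′ to 3′ on the strand of the gene from RefSeq (GRCm38.p6), and hold the letters GAGGAA or their reverse complement in capitals.
Ly6c2, chr15:75111972-75112121, minus strand: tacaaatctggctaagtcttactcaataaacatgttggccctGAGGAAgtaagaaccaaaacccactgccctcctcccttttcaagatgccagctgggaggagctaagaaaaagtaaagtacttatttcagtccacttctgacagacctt
Treml4, chr17:48264145-48264294, plus strand: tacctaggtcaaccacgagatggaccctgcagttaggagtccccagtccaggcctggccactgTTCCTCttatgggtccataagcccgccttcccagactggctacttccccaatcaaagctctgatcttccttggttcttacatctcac
Ace, chr11:105967798-105967944, plus strand: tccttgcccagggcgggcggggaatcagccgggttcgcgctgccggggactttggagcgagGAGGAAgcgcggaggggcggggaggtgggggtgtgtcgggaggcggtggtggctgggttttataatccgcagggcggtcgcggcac
C1qb, chr4:136886201-136886350, minus strand: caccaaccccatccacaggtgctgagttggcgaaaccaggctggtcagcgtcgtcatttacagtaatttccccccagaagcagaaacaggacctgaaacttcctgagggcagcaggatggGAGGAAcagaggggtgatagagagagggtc
RefSeq held 35 promoters for 27 of the 38 genes. On either strand of the 250 bases before the start, GAGGAA occurred in 14 of these 35 promoters (40%) and in 23.3% of all 32851 promoters. The longer form GAGGAAGT, which contains the first, occurred in 3 of 35 (8.57%) against 2.44%, and the C/EBP letters TTGCNNAA in 2 of 35 (5.71%) against 9.56%. Promoters of the same gene can overlap and hold the same site, as in Ly6c2 and Clec7a. Counted by gene, GAGGAA occurred in 11 of 27 (40.7%) against 25.9%. GAGGAAGT occurred in 2 of 27 (7.41%) against 2.79%, and TTGCNNAA in 2 of 27 (7.41%) against 10.8%. A match of letters is a description of the sequence and no measured binding site.

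In PBMCs the 38 genes spanned a wide range when their CPM was divided by exon length, with a median of 60.4 CPM per kb. Lyz2, the lysozyme of myeloid cells, came first at 2990 CPM per kb (mean of 15 libraries). It was followed by Tyrobp, the adaptor of many activating receptors, at 463, by Cebpb at 259 and by Apoe, the apolipoprotein of macrophages, at 237 CPM per kb. The classical gene Ly6c2 lay at 118 CPM per kb, above Fn1 (fibronectin) at 61.9, and the nonclassical genes lay at 58.8 for Ace (angiotensin-converting enzyme), 29.1 for Treml4 (a receptor that pairs with the Tyrobp adaptor) and 14.0 for Cd300e (an activating receptor of monocytes). The lowest places were held by the complement genes C1qb, C1qa and C1qc at 1.25, 0.360 and 0.329 CPM per kb and by Ms4a7, a membrane protein of tissue macrophages, at 0.241 CPM per kb.

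In platelets the median over the 38 genes was 5.42 CPM per kb, each scale being set within its tissue. Lyz2 again came first at 1230 CPM per kb, ahead of Tyrobp at 62.6, Lst1 (a small leukocyte protein) at 62.4, Apoe at 35.2 and Spi1 at 29.1 CPM per kb. The single gene Lyz2 made up 46.8% to 82.5% of the summed CPM of the 38 genes in a platelet library (median 69.4%) and 28.1% to 40.2% in a PBMC library (median 36.1%). The coefficient of variation over the 15 libraries was higher in platelets for 36 of the 38 genes. That of Csf1r was 57.2% in platelets and 13.9% in PBMCs, and that of Pld4, a lysosomal exonuclease of single-stranded DNA and RNA, was 54.8% against 9.61%.

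The tissues were set against each other on one TMM scale in a fit of all 30 libraries that also held the group, by edgeR's quasi-likelihood test. After Benjamini-Hochberg adjustment over 16498 genes, 31 of the 38 genes (81.6%) were lower in platelets, where 45.2% of all genes tested were lower, and 4 (10.5%) were higher, where 35.8% of all genes were. Aif1, Lyz2 and Ms4a7 did not pass. Markers of several other white cells were lower too. These were 9 of 10 T cell, 9 of 10 B cell, 7 of 8 NK cell and 8 of 12 neutrophil markers. Dendritic cell markers were divided, with 4 of 8 lower and 3 higher. Of the platelet markers 9 of 9 were higher, as were 9 of 9 erythroid markers. The median log2 fold change was −2.18 over the 38 genes and −0.17 over all genes, and the levels of 25 of the 38 genes did not overlap between the tissues, nor did those of 24.4% of all genes tested. In bulk RNA, fewer cells of a type and less RNA per cell cannot be told apart, here or below.

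Csf1r fell from 371 ± 51.0 CPM (SD, n = 15) in PBMCs to 48.1 ± 25.6 CPM in platelets, a log2 difference of −2.99 ± 0.217 (SE). Cd14, the co-receptor for bacterial lipopolysaccharide, differed most, from 90.7 ± 57.0 to 4.86 ± 4.74 CPM (log2 −4.22 ± 0.399), although its lowest PBMC values reached into the platelet range. The classical genes were lower in platelets by −2.19 (Ly6c2) and −2.90 (Fn1) on the log2 scale, and the nonclassical genes by −2.21 (Ace), −1.88 (Treml4) and −1.84 (Cd300e). The transcription factors lay at unequal distances, with Cebpb at −2.87, Klf4 at −1.16, Cebpa at −0.54 and Spi1 at −0.42. Lyz2 was at 2550 ± 510 CPM in PBMCs and 2490 ± 1050 CPM in platelets (log2 −0.05 ± 0.185, adjusted P = 0.818). This near equality depended on the scaling, as described below.

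The 3 chains of complement C1q, made by tissue macrophages, went the other way. Apoe of the same role group was lower (log2 −1.56). Of 9 genes tested from a further tissue macrophage list, 3 were higher in platelets and 3 lower, against 35.8% and 45.2% of all genes. C1qa was at 4.21 ± 3.69 CPM in platelets and 0.246 ± 0.162 CPM in PBMCs, a log2 difference of 4.00 ± 0.359 (adjusted P = 1.5e-11). C1qc was higher by 3.18 ± 0.332 and C1qb by 2.23 ± 0.318 on the log2 scale. The 3 genes neighbour each other on chromosome 4 (GRCm38 136880129 to 136898803, minus strand). Lst1 was also higher in platelets (log2 0.58 ± 0.187, adjusted P = 0.00593), but this depended on the scaling. With library totals in place of TMM the median over all genes moved from −0.17 to −1.38. Lst1 turned to −0.73 and Aif1, a cytoskeletal protein of macrophages, from 0.08 to −1.13. Then 3 genes stayed higher and 35, Lyz2 among them, were lower, where 91.1% of all genes were called in one direction or the other.

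**Figure D1:**
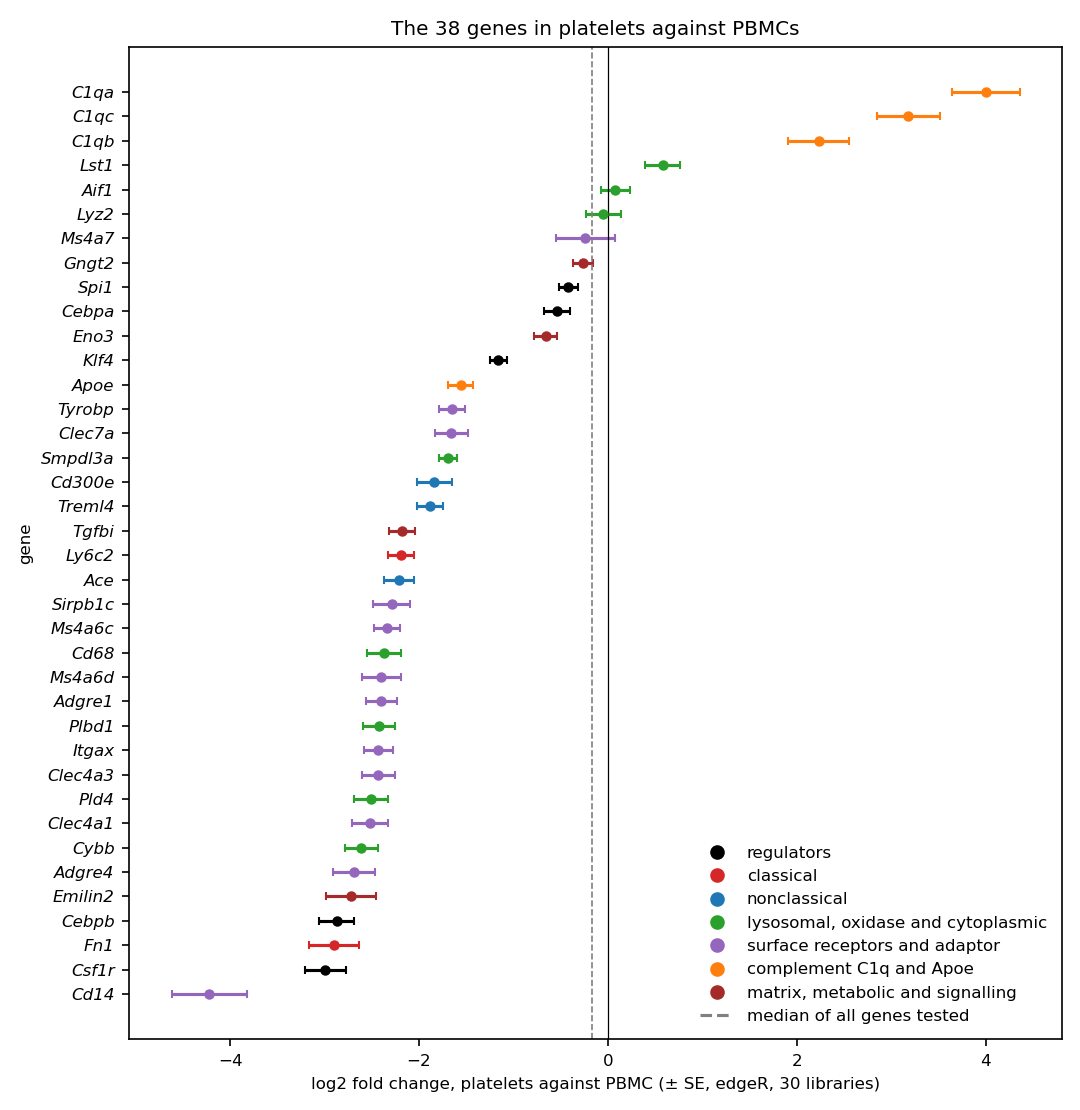
Difference between platelets and PBMCs for each of the 38 genes, with the log2 fold change on the horizontal axis, genes as rows in the order of that value, colors for roles, points for the estimates over 30 libraries, bars for 1 SE and a dashed line for the median of all genes. The C1q genes lie on the right (2.23 to 4.00), Lyz2 and Aif1 lie near 0, and the classical and nonclassical genes lie between −2.90 and −1.84.

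The classical gene Ly6c2 (GRCm38 chromosome 15, 75108158 to 75111970) was nearly even in the PBMCs of C group, at 286, 303, 299, 294 and 320 CPM in replicates 1 to 5. It was at 325, 271, 565, 236 and 281 CPM in S group and at 258, 323, 385, 387 and 306 CPM in O group. The groups overlapped, and replicate 3 of S group alone stood far above the others. In platelets Ly6c2 was at 36.0, 21.1, 40.8, 18.9 and 19.0 CPM in C group, at 39.5, 36.1, 41.7, 22.5 and 48.9 CPM in S group and at 32.3, 21.9, 39.2, 18.3 and 21.1 CPM in O group. No comparison of Ly6c2 between groups reached an unadjusted P under 0.05 in either tissue without a covariate.

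Fn1 (chromosome 1, 71585520 to 71653200) was at 780, 531, 507, 614 and 851 CPM in the PBMCs of C group and at 688, 628, 482, 218 and 768 CPM in those of S group. In O group it was at 1390, 1130, 873, 556 and 819 CPM. The highest 3 of the 15 values all belonged to O group, and the lowest to S group replicate 4. In platelets Fn1 was at 56.6, 19.7, 24.7, 34.5 and 24.4 CPM in C group, at 75.0, 22.7, 37.3, 26.9 and 119 CPM in S group and at 76.3, 32.5, 40.9, 13.7 and 23.4 CPM in O group, and no difference there passed the test.

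The nonclassical gene Treml4 (chromosome 17, 48264295 to 48275360) hardly moved in PBMCs, where it was at 48.7, 55.0, 68.2, 57.8 and 62.7 CPM in C group, at 50.1, 57.3, 57.9, 53.0 and 73.3 CPM in S group and at 55.1, 50.5, 56.1, 65.3 and 61.3 CPM in O group. In platelets it was at 10.6, 3.59, 4.09, 7.68 and 4.84 CPM in C group, at 7.44, 7.90, 11.6, 4.56 and 11.7 CPM in S group and at 6.32, 7.38, 5.53, 5.45 and 3.89 CPM in O group. All but 1 of the S group values lay above all of those of O group.

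Ace (chromosome 11, 105967945 to 105989964) was at 251, 364, 356, 247 and 331 CPM in the PBMCs of C group, at 272, 359, 343, 218 and 362 CPM in S group and at 269, 283, 361, 298 and 352 CPM in O group. In platelets it was at 30.9, 20.4, 18.5, 48.3 and 37.0 CPM in C group, at 35.9, 28.8, 48.3, 25.4 and 64.9 CPM in S group and at 18.0, 12.9, 24.3, 16.5 and 18.7 CPM in O group. The platelet values of S group and O group did not overlap, whereas those of PBMCs lay in one range. Cd300e (chromosome 11, 115051917 to 115062177) was low in platelets, at 7.36, 1.58, 4.57, 3.31 and 2.58 CPM in C group, at 3.08, 2.31, 4.63, 2.07 and 8.60 CPM in S group and at 5.52, 1.63, 3.06, 1.82 and 1.74 CPM in O group. In PBMCs it was at 25.6, 36.1, 36.4, 31.3 and 25.7 CPM in C group, at 33.9, 32.6, 28.5, 25.3 and 33.9 CPM in S group and at 29.5, 24.0, 26.5, 21.4 and 29.0 CPM in O group. Its groups overlapped in both tissues.

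Csf1r was at 495, 511, 648, 564 and 608 CPM in the PBMCs of C group, at 498, 509, 592, 388 and 643 CPM in S group and at 607, 646, 699, 576 and 585 CPM in O group. In platelets it was at 47.9, 10.4, 32.9, 29.9 and 21.4 CPM in C group, at 45.8, 29.0, 50.5, 19.4 and 77.8 CPM in S group and at 37.7, 17.1, 33.0, 7.17 and 18.9 CPM in O group. The groups overlapped in both tissues, and the highest platelet value was that of S group replicate 5. Lyz2 (chromosome 10, 117277331 to 117282321) was at 4070, 3430, 3470, 3610 and 4640 CPM in the PBMCs of C group, at 4140, 3380, 3840, 1950 and 3970 CPM in S group and at 5220, 5210, 4510, 3520 and 4130 CPM in O group. In platelets it was at 3130, 2180, 1380, 1580 and 1370 CPM in C group, at 1770, 1610, 2530, 983 and 1320 CPM in S group and at 1020, 2200, 1010, 1660 and 512 CPM in O group. No comparison of Lyz2 between groups reached an unadjusted P under 0.05.

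The sum of the nonclassical genes divided by that of the classical genes was 0.305 to 0.572 in the PBMCs of C group, 0.352 to 0.653 in S group and 0.214 to 0.408 in O group. In platelets it was 0.415 to 1.11 in C group, 0.406 to 0.817 in S group and 0.275 to 0.742 in O group. All 3 ranges overlapped in each tissue.

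**Figure D2:**
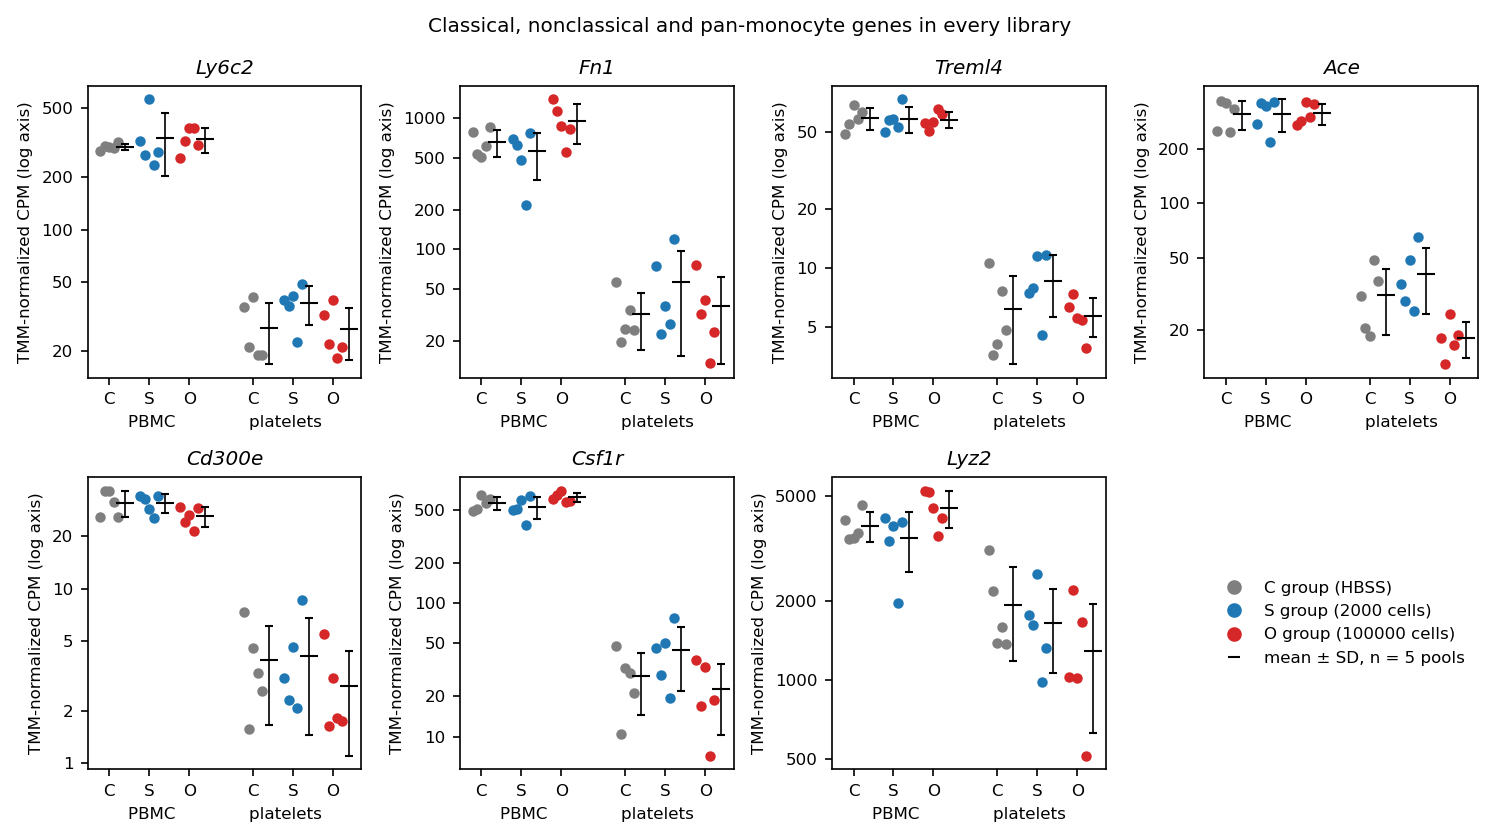
Levels of the classical genes Ly6c2 and Fn1, the nonclassical genes Treml4, Ace and Cd300e, and Csf1r and Lyz2 in every library, as TMM-normalized CPM on a log axis, with 1 point per pool and bars for mean ± SD (n = 5). Platelet and PBMC levels are scaled within their own tissue. The O group points of Ace in platelets (12.9 to 24.3 CPM) all lie below those of S group (25.4 to 64.9 CPM).

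In platelets, S group was compared with O group to ask how the RNA differs between an inoculation without visible tumor and one with a palpable tumor. A gene was called at an unadjusted P under 0.05 in edgeR, the criterion of the study, and adjusted values are given beside it. Of the 37 genes tested, 12 were higher in S group (32.4%) against 7.23% of all 13306 genes, and 2 were lower (5.41%) against 6.67%. The nonclassical genes Ace and Treml4, all 4 genes of the complement and Apoe group, and the receptor gene Csf1r were among those that were higher, while the transcription factor genes Cebpb and Spi1 were lower. The classical genes were not called. The median log2 fold change was 0.49 over the 37 genes and −0.01 over all genes. No gene of the list passed an adjusted P of 0.05 in edgeR, as no gene of the whole table did (0%), nor did any in voom, whereas DESeq2 passed 5 of the list (Ace, Spi1, Cebpb, Apoe and C1qc) and 2.07% of all genes.

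Ace was 2.21 times as high in S group as in O group (40.7 ± 16.1 against 18.1 ± 4.13 CPM, SD, n = 5 pools each), a log2 fold change of 1.14 ± 0.264 (edgeR, adjusted P = 0.225). Cebpb was at 17.8, 18.7, 19.2, 11.9 and 20.3 CPM in S group, at 28.9, 25.6, 25.4, 24.4 and 34.8 CPM in O group and at 16.1, 17.9, 53.6, 15.8 and 7.62 CPM in C group. It was lower in S group than in O group without overlap (log2 −0.69 ± 0.178, adjusted P = 0.225). Apoe was at 133, 85.1, 116, 84.5 and 75.0 CPM in S group, at 67.7, 45.3, 70.8, 38.3 and 44.8 CPM in O group and at 76.8, 41.1, 111, 77.4 and 63.4 CPM in C group. It was higher in S group than in O group without overlap (log2 0.87 ± 0.230, adjusted P = 0.225). These 3 genes were the ones of the 38 whose groups did not overlap, where 3.56% of all genes tested did not.

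C1qc was at 8.02, 3.57, 4.63, 4.23 and 0.834 CPM in S group, at 0.673, 1.41, 1.35, 1.16 and 1.53 CPM in O group and at 1.60, 1.67, 3.41, 2.19 and 3.23 CPM in C group. C1qa and C1qb had the same shape, with S group replicate 1 highest at 9.93 and 8.07 CPM and replicate 5 lowest in S group at 0.990 and 0.886 CPM. The differences of S group from O group were 1.74 (C1qc), 1.69 (C1qa) and 1.63 (C1qb) on the log2 scale, with adjusted P values of 0.238, 0.279 and 0.269. Replicate 5, lowest of S group for C1q, was the highest of all 15 platelet libraries for 15 of the 38 genes, among them Csf1r and Pld4. It also had the highest marker sums of B cells (2480 CPM, next 1750 CPM) and T cells (371 CPM, next 353 CPM) of these 15. Without it 9 genes were called (12.5% of all genes), and Csf1r, Adgre1, Treml4, Clec4a1, Itgax and Pld4 were not among them. Without S group replicate 1 likewise 9 were called (9.60%), and C1qa, Csf1r, Adgre1, Treml4 and Clec4a1 were not among them.

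Calls on 7 genes held whichever library was left out, namely Cd68 (a lysosomal glycoprotein of macrophages), Ace, Apoe, C1qb, C1qc, Cebpb and Spi1. Cebpb, however, lost its call with all 3 groups in one fit, as did Treml4 and Clec4a1. Cd68 was higher by 0.84, Adgre1 (the F4/80 antigen) by 0.81, Itgax (the integrin CD11c) by 0.94, Pld4 by 1.03, Clec4a1 (a C-type lectin) by 0.78 and Csf1r by 0.95 on the log2 scale, and Spi1 was lower by −0.55. Markers of other cells moved in the same comparison. Of the tested markers, 9 of 10 of T cells, 7 of 10 of B cells and 2 of 8 of NK cells were higher in S group, and 7 of 11 of neutrophils and 3 of 9 of erythroid cells were lower. The summed T cell markers were 280 to 371 CPM in S group and 153 to 249 CPM in O group, and the neutrophil markers 198 to 347 CPM against 330 to 3820 CPM. With the mean lymphocyte marker level as a covariate, 4 genes were called (2 higher, 2 lower), where 2.40% of all genes were. Lymphocyte markers themselves differed between the groups, so the fit could not fully separate the covariate from the group, here and in the comparisons below. C1qa (log2 2.18), C1qb (2.10) and Cebpb (−1.01) kept their calls, and Eno3, the muscle-type enolase, was the fourth, being lower. C1qc stood at 1.63, Apoe at 0.64 and Spi1 at −0.49 without a call, while Csf1r turned to −0.08 and Ace came to 0.25. With a neutrophil covariate, added after the data were seen, 22 genes were higher and 2 lower, where 14.9% of all genes were called.

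S group was compared with C group to ask for a change after an inoculation without visible tumor. Of 37 genes, 4 were higher in the platelets of S group (10.8%) against 4.29% of all genes, and 1 was lower (2.7%) against 2.13%. The genes were Cebpa, Pld4, C1qb and Ms4a6c on the higher side and Lst1 on the lower. The groups overlapped for each of the 38 genes, whereas those of 1.24% of all genes did not. The median log2 fold change was 0.37 over the 37 genes and −0.01 over all. More genes were called with no filter and with voom, and fewer with all 3 groups in one fit, as given in the closing section. Neither the classical nor the nonclassical genes were called, with log2 fold changes of 0.46 ± 0.248 (Ly6c2), 0.81 ± 0.418 (Fn1), 0.48 ± 0.317 (Treml4), 0.37 ± 0.295 (Ace) and 0.09 ± 0.434 (Cd300e). None of the 37 passed an adjusted P of 0.05 in edgeR, where 0.00754% of all genes did, nor in DESeq2 or voom.

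Lst1 was at 18.4, 18.9, 27.7, 10.6 and 14.1 CPM in the platelets of S group, at 53.6, 29.0, 29.4, 20.7 and 22.3 CPM in C group and at 29.3, 35.4, 20.3, 51.0 and 7.83 CPM in O group. It was lower in S group than in C group by −0.81 ± 0.270 on the log2 scale (edgeR, adjusted P = 0.746). Cebpa was at 21.8, 23.8, 29.7, 20.1 and 21.8 CPM in S group, at 19.8, 16.6, 20.6, 13.8 and 10.5 CPM in C group and at 12.1, 26.8, 18.0, 13.3 and 21.0 CPM in O group. Its lowest S group value lay just under the highest of C group (log2 0.51 ± 0.183, adjusted P = 0.746). Pld4 was at 47.5, 30.9, 52.8, 23.3 and 77.5 CPM in S group, at 41.8, 16.1, 33.6, 23.8 and 20.8 CPM in C group and at 31.1, 13.9, 35.4, 10.4 and 20.9 CPM in O group (S group against C group, log2 0.76, adjusted P = 0.752). C1qb differed by 1.03 and Ms4a6c, a membrane protein of the MS4A family, by 0.61.

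Lst1 and Cebpa kept their call with every library left out in turn, but Lst1 lost it with all 3 groups in one fit. The others lost theirs without some libraries, since Pld4 and Ms4a6c lost it without S group replicate 5 and C1qb without S group replicate 1. The number called was 3 without S group replicate 3 or C group replicate 2, 4 or 5 (4.83% to 5.75% of all genes), 9 without S group replicate 4 (7.23%) and 13 without C group replicate 1 (11.4%). Of the other cells' markers, 3 of 10 of T cells, 4 of 10 of B cells and 1 of 8 of NK cells were higher in S group, and the list turned with the lymphocyte covariate. Under it 1 gene was higher and 6 were lower, where 3.16% of all genes were called, and the median over the 37 genes came to −0.30. Pld4 turned to −0.17 and Ms4a6c to −0.00 on the log2 scale. Cebpa came to 0.38 and lost its call, while Lst1 (−1.12) and C1qb (1.54) kept theirs.

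In O group against C group, 0 of 37 genes were called higher in platelets, where 2.61% of all genes were, and 2 were lower (5.41%), where 2.17% of all genes were. C1qc was lower by −0.97 ± 0.333 (edgeR, adjusted P = 0.910), without overlap between the groups, which held for 0.950% of all genes, and Ace by −0.80 ± 0.276 (adjusted P = 0.910). Both calls held with every library left out, and the number called was 4 without O group replicate 2 (7.93% of all genes) or C group replicate 1 (4.54%) and 7, of them 5 higher, without C group replicate 3 (4.67%). The median log2 fold change was −0.12 over the 37 genes, and none passed an adjusted P of 0.05 in edgeR (0% of all genes did), DESeq2 or voom. By unadjusted P, voom and the replicate block called some genes higher, as given in the closing section. Of the neutrophil markers 5 of 11 were higher in O group, and 5 of 10 of T cells and 3 of 10 of B cells were lower. With the lymphocyte covariate both calls ended (C1qc −0.63, Ace −0.68), 0 genes being called among 1.77% of all genes. The 2 comparisons with O group share its libraries, as the 2 with S group share theirs.

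**Figure D3:**
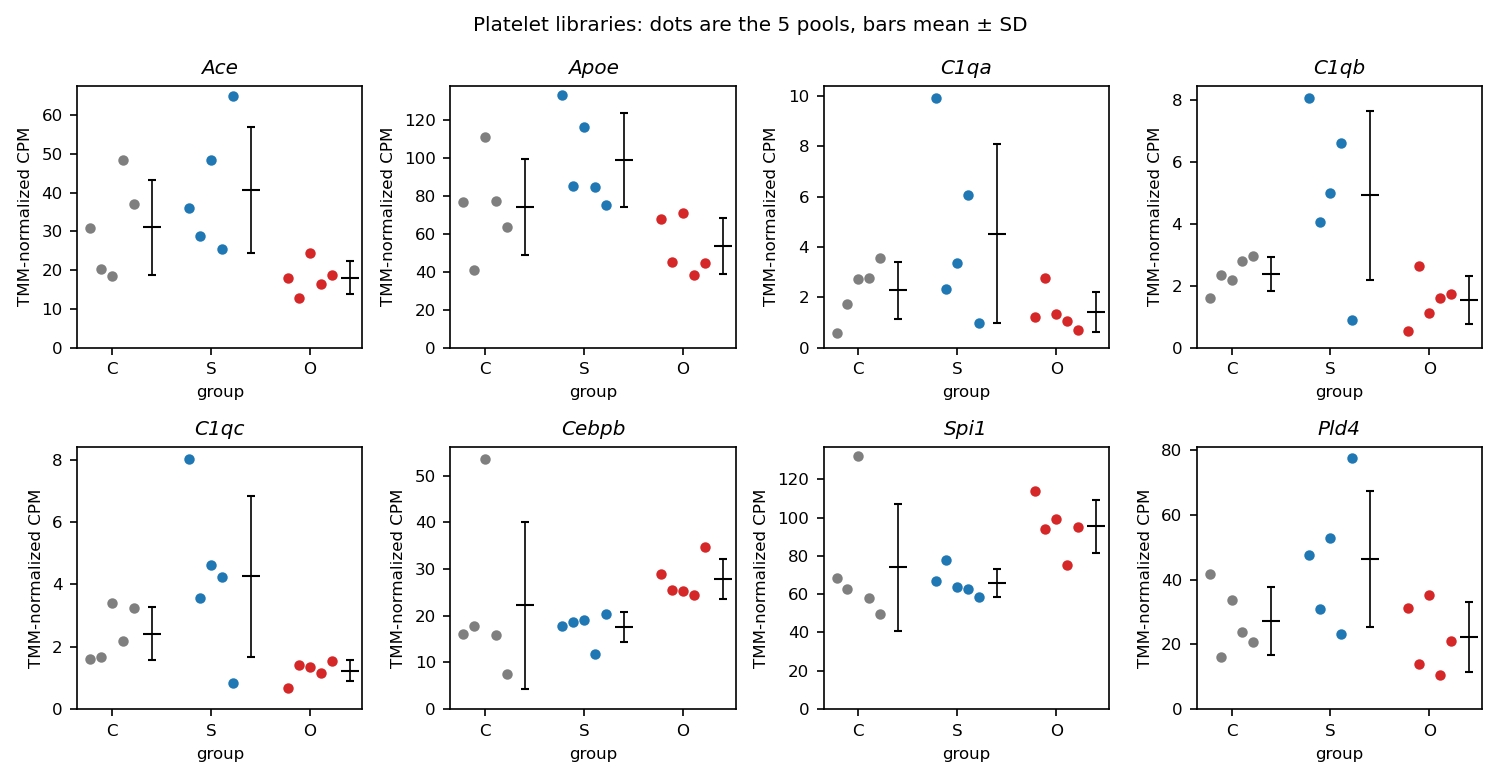
Platelet levels of Ace, Apoe, the 3 C1q genes, Cebpb, Spi1 and Pld4, as TMM-normalized CPM per pool with mean ± SD (n = 5). Ace, Apoe and Cebpb of S group and O group do not overlap, and C1qc of S group spans 0.834 to 8.02 CPM.

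In PBMCs, S group and C group differed in 0 of the 37 genes tested at an unadjusted P under 0.05, where 1.23% of all 15139 genes were higher and 1.41% lower. The levels of 0 of the 38 genes were without overlap, against 0.793% of all genes. The median log2 fold change was −0.09, and no gene passed an adjusted P of 0.05 in edgeR (0.0330% of all genes did), DESeq2 or voom. The log2 fold changes were 0.17 ± 0.195 for Ly6c2, −0.22 ± 0.279 for Fn1, 0.01 ± 0.113 for Treml4, 0.02 ± 0.158 for Ace and 0.00 ± 0.123 for Cd300e. A difference under the spread between pools could not be seen at this number of libraries.

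Between S group and O group, 9 of the 36 genes tested in PBMCs were lower in S group (25%) against 7.80% of all 14686 genes, and 0 were higher, where 4.43% of all genes were. They were Tgfbi and Fn1, which code for extracellular matrix proteins, Emilin2 (an elastic fiber glycoprotein), the receptors Sirpb1c and Clec7a (dectin-1, which binds fungal β-glucan), the adaptor Tyrobp, Plbd1 (a phospholipase of myeloid granules) and the transcription factor genes Spi1 and Cebpb. The nonclassical genes were not called, with log2 fold changes of 0.02 ± 0.112 (Treml4), −0.01 ± 0.156 (Ace) and 0.24 ± 0.119 (Cd300e). The median was −0.24 over the 36 genes and −0.00 over all. Voom and the replicate block called more genes, most but not all of them lower, as given in the closing section. No gene of the list or of the table (0%) passed an adjusted P of 0.05 in edgeR, none of the list did in voom, and 2 of the list (Emilin2 and Tgfbi) and 1.61% of all genes did in DESeq2.

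Tgfbi was at 334, 295, 436, 343 and 352 CPM in S group, at 567, 560, 504, 638 and 412 CPM in O group and at 390, 297, 324, 616 and 423 CPM in C group. It was lower in S group than in O group by −0.60 ± 0.136 on the log2 scale (edgeR, adjusted P = 0.296), although the lowest O group value lay under the highest of S group. Emilin2 was at 281, 265, 347, 230 and 303 CPM in S group, at 532, 445, 413, 450 and 337 CPM in O group and at 320, 245, 299, 341 and 338 CPM in C group (S group against O group, log2 −0.61 ± 0.140, adjusted P = 0.296). Sirpb1c was at 43.6, 43.1, 57.4, 39.5 and 56.6 CPM in S group, at 78.5, 67.2, 62.3, 66.9 and 54.5 CPM in O group and at 54.6, 45.0, 45.2, 85.4 and 60.2 CPM in C group (S group against O group, log2 −0.45 ± 0.131, adjusted P = 0.303). In each of these genes a single O group library, replicate 5, overlapped S group.

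Plbd1 was at 184, 173, 225, 129 and 217 CPM in S group, at 255, 265, 243, 226 and 233 CPM in O group and at 202, 175, 187, 205 and 238 CPM in C group. It was the 1 gene of the 38 that did not overlap between S group and O group, where 1.87% of all genes did not (log2 −0.39, adjusted P = 0.338). Tyrobp differed by −0.39, Fn1 by −0.78, Spi1 by −0.30, Clec7a by −0.49 and Cebpb by −0.49, the last only just under the threshold, and the adjusted P values of the 9 genes were 0.296 to 0.409. S group replicate 4 was the lowest of all 15 PBMC libraries for 22 of the 38 genes and had neutrophil markers at 3760 CPM. Leaving out each library in turn gave 5 to 11 calls, with 5 without S group replicate 2 (9.10% of all genes), and Tgfbi, Emilin2, Sirpb1c, Tyrobp and Plbd1 were called every time.

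Beside these genes, 10 of 10 T cell markers and 8 of 8 NK cell markers were higher in the PBMCs of S group than in those of O group, while 0 of 10 B cell markers were called, and 3 of 12 neutrophil and 8 of 8 erythroid markers were lower. The summed T cell markers were 1270 to 1840 CPM in S group and 1020 to 1280 CPM in O group, and the neutrophil markers 430 to 3760 CPM against 525 to 7400 CPM. With the lymphocyte covariate 0 of the 36 genes were called, among 1.42% of all genes, and on the log2 scale Clec7a stood at −0.43, Cebpb at −0.38, Tgfbi at −0.32 and Emilin2 at −0.13, with the other 5 genes between −0.12 and −0.03. With the neutrophil covariate 12 were called, all lower, among 8.22% of all genes.

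Between O group and C group, 6 of 36 genes in PBMCs were higher in O group (16.7%) against 7.56% of all 14726 genes, and 0 were lower, where 4.39% of all genes were. The levels of 0 of the 38 genes were without overlap, against 1.75% of all genes. Emilin2 differed by 0.49 ± 0.130 (edgeR, adjusted P = 0.337), Cebpb by 0.62, Spi1 by 0.35 and Fn1 by 0.54. Clec7a was at 129, 95.9, 106, 183 and 87.0 CPM in O group, at 86.7, 63.8, 79.1, 80.2 and 90.1 CPM in C group and at 70.2, 68.8, 99.1, 115 and 73.0 CPM in S group (O group against C group, log2 0.59 ± 0.188, adjusted P = 0.339). Plbd1 differed by 0.28 ± 0.0925 (adjusted P = 0.346). The median was 0.13 over the 36 genes. This comparison shares its O group libraries with the one of S group against O group.

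Calls on Cebpb, Emilin2, Clec7a and Plbd1 held with every library left out, whereas Fn1 lost its call without any 1 of O group replicates 1 to 3 or C group replicates 2 to 4, and Spi1 without O group replicate 1 or 4 or C group replicate 2. No gene of the list or of the table (0%) passed an adjusted P of 0.05 in edgeR, none of the list did in voom, and Emilin2 alone did in DESeq2, where 1.66% of all genes passed. In this comparison 10 of 10 T cell markers and 2 of 8 NK cell markers were lower in O group, and 1 of 12 neutrophil and 8 of 8 erythroid markers were higher. Hemoglobin genes took 6.52% to 24.5% of the counts in O group and 3.29% to 9.39% in C group. With the lymphocyte covariate all 6 calls ended, and Ly6c2, not called without it, was higher in O group as the 1 gene called, among 3.06% of all genes. The log2 fold change stood at 0.72 for Cebpb and 0.50 for Clec7a, and at 0.18 for Plbd1, 0.16 for Emilin2, 0.10 for Spi1 and 0.01 for Fn1.

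**Figure D4:**
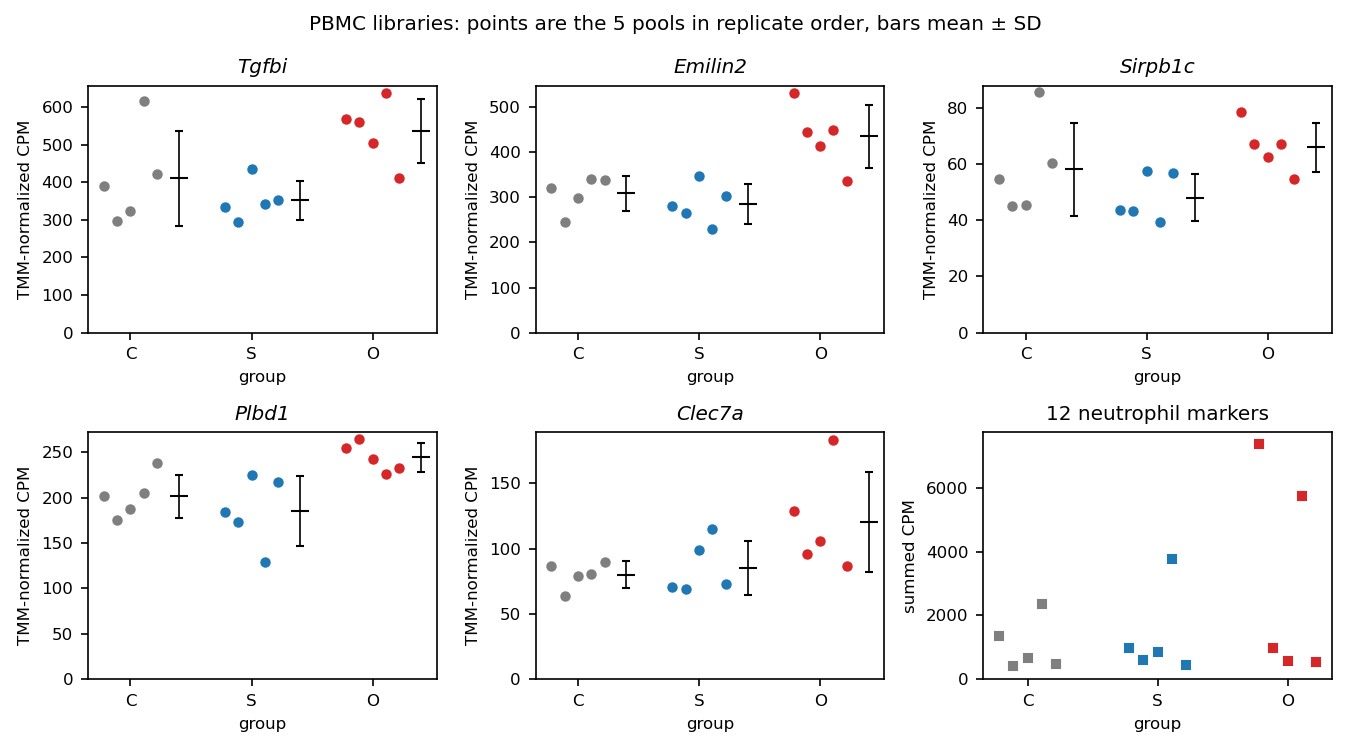
PBMC levels of Tgfbi, Emilin2, Sirpb1c, Plbd1 and Clec7a, as TMM-normalized CPM per pool with mean ± SD (n = 5), and the summed CPM of 12 neutrophil markers. The O group points lie above those of S group for Plbd1 (226 to 265 CPM, S group 129 to 225 CPM), and replicate 5 of O group falls into the S group range for Tgfbi, Emilin2 and Sirpb1c.

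Whether platelets and PBMCs responded differently was tested as an interaction over all 30 libraries. For S group against O group, the change was more positive in platelets for 9 of 38 genes (23.7%) against 5.86% of all genes, and more negative for 1 (2.63%) against 7.75%. The difference of the log2 fold changes was 0.92 ± 0.280 for Apoe (edgeR, adjusted P = 0.202), 1.03 ± 0.338 for Ace (adjusted P = 0.211) and 1.05 ± 0.375 for Pld4 (adjusted P = 0.241). It was 0.98 for Cd68, 0.93 for Adgre1, 1.09 for Csf1r, 0.87 for Clec4a1, 1.61 for C1qb and 1.23 for Fn1, and −0.59 for Eno3. Calls on Cd68, Ace, Apoe and Pld4 held with every library left out, while the number called ranged from 6 without platelet S group replicate 5 to 18 without platelet O group replicate 1. The first of these fits called 2016 of all 16806 genes and the second 17.3%, against 13.6% with every library. Of the tested markers of other cells, 5 of 10 of B cells, 3 of 10 of T cells, 2 of 9 of erythroid cells and 1 of 8 of NK cells were also more positive in platelets and 2 of NK cells more negative, and their part in this result was not tested.

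Fn1 and Csf1r thus had estimates of opposite sign in the tissues, 0.58 ± 0.506 in platelets against −0.78 ± 0.330 in PBMCs for Fn1 and 0.95 ± 0.435 against −0.24 ± 0.136 for Csf1r. For Cebpb and Spi1 the estimates were negative in both. For S group against C group the response differed for Ms4a6c alone, by 0.63 (adjusted P = 0.927), so that 1 of 38 was higher (2.63%) against 3.33% of all genes and 0 were lower against 2.05%. For O group against C group it differed for Ace alone, by −0.72 (adjusted P = 0.728), so that 1 of 38 was lower (2.63%) against 2.71% of all genes and 0 were higher against 3.89%. Neither call held with every library left out, and without platelet C group replicate 1 the S group against C group test called 10 genes (9.83% of all genes) and without platelet C group replicate 3 the O group against C group test called 4 (7.98%). In the first of these tests 3 of 10 T cell markers and 1 of 8 NK cell markers were more positive in platelets, and in the second 2 of 8 NK cell markers were more positive and 7 of 9 erythroid markers more negative. No gene of the list passed an adjusted P of 0.05 in these 3 tests.

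**Figure D5:**
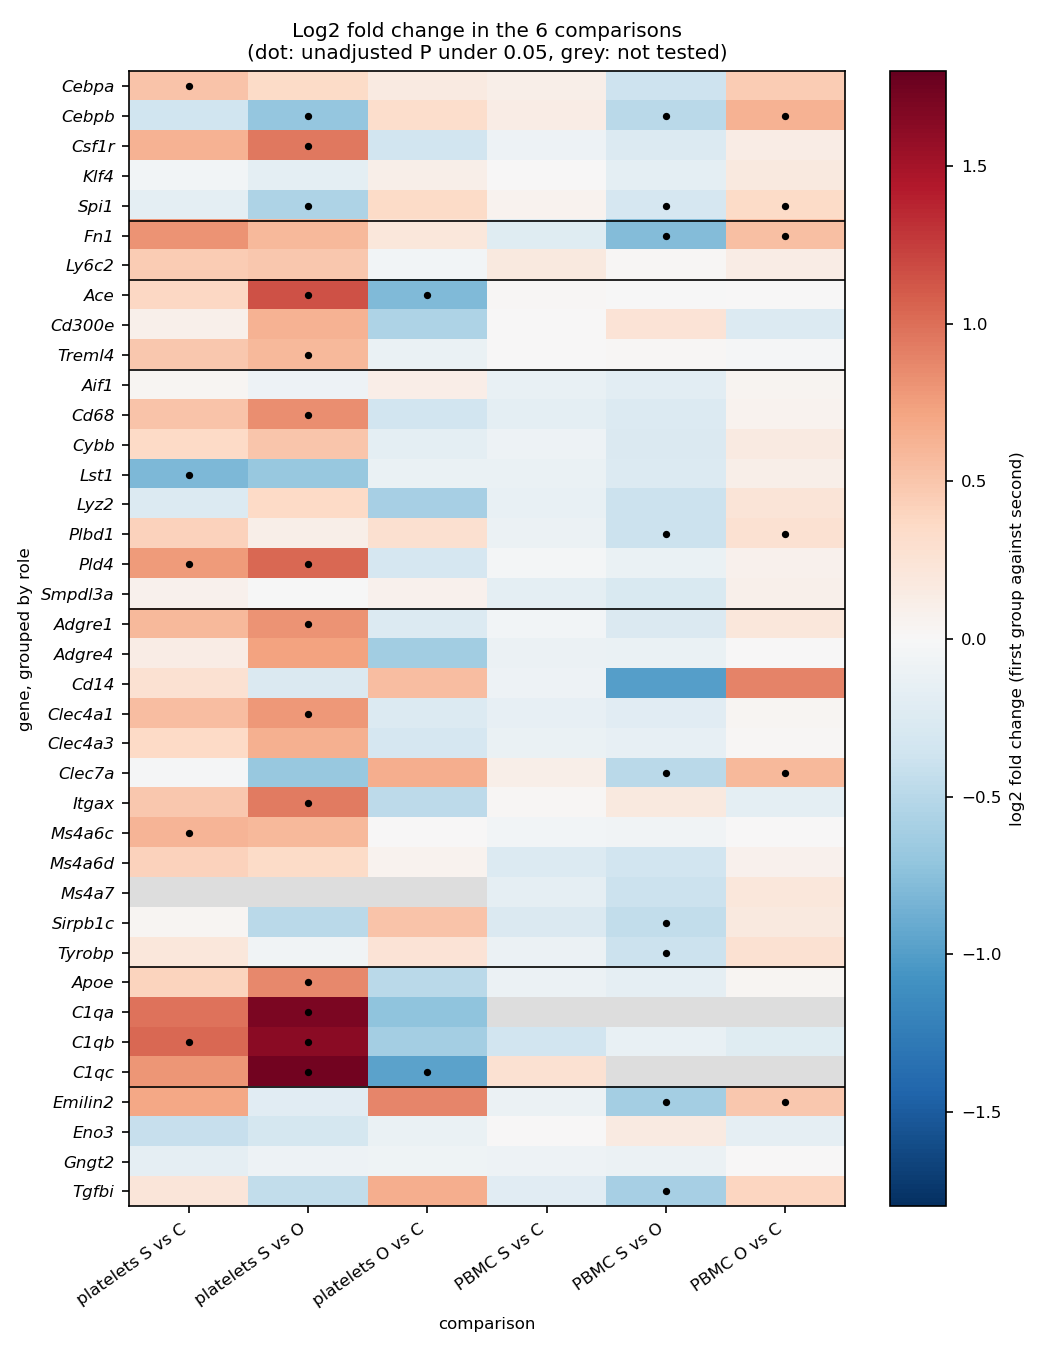
Log2 fold changes of the 38 genes (rows, by role) in the 6 comparisons within a tissue (columns), with color for the size and direction and a dot for an unadjusted P under 0.05. Dots fall on 14 genes in platelets of S group against O group, 12 of them higher, and on 9 genes, all lower, in PBMCs of the same groups.

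Other genes of the same biology were counted from 6 further lists, to be read against the shares of all genes given for each comparison (7.80% lower in PBMCs of S group against O group). Of 8 other classical genes, 5 were lower in the PBMCs of S group than in those of O group, among them Vcan (versican, log2 −1.08 ± 0.266) and Chil3 (a chitinase-like protein, −0.82 ± 0.227), and of 8 other nonclassical genes 0 were called there. Of 15 other phagocyte genes 8 were lower, led by Mpeg1 (perforin-2, −0.37) and Fcgr3 (an Fc receptor, −0.42), as were 2 of 5 growth factor and chemokine genes (the receptor chains Csf2ra, −0.38, and Csf2rb, −0.48), 1 of 8 monocyte regulators (Tfec, −0.76) and 1 of 7 tissue macrophage genes (the scavenger receptor Msr1, −0.46). In PBMCs of O group against C group, where 7.56% of all genes were higher and 4.39% lower, 1 classical gene (Gda, guanine deaminase, 1.96), 3 phagocyte genes (among them Cd36, 1.69, and Ccl9, 0.29) and Csf2ra (0.34) were higher and 1 regulator (Nr1h3, the liver X receptor α, −0.55) was lower. None of the 6 lists had a call in PBMCs of S group against C group.

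In platelets of S group against O group, where 7.23% of all genes were higher and 6.67% lower, 3 of 8 other nonclassical genes were higher, among them Spn (CD43, log2 1.50 ± 0.369) and Fcgr4 (an Fc receptor, 1.03 ± 0.312), and 1 of 8 other classical genes lower (F13a1, coagulation factor XIII, −0.77). Of 15 phagocyte genes Ctss (cathepsin S) was higher by 0.68 and Lgals3 (galectin-3) lower by −0.66, and of 8 tissue macrophage genes Siglec1 was higher by 1.22 and Slc40a1, the iron exporter, lower by −1.63. No regulator and no growth factor gene was called. In S group against C group (4.29% of all genes higher and 2.13% lower), Spn (0.89), Pglyrp1 (0.60), Csf1 (1.09), Axl (0.57) and Siglec1 (1.00) were higher and F13a1 (−0.80) lower, and no regulator or phagocyte gene was called. In O group against C group (2.61% of all genes higher), Csf2rb (1.97) and Slc40a1 (1.40) were higher and no gene of the other 4 lists was called. Spn is also made by lymphocytes, whose markers were higher in the platelets of S group, and their part in its difference was not tested.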

How the data were processed

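RNA of platelets and PBMCs was sequenced as 5 pooled libraries per group and tissue. The authors removed low-quality reads, aligned the rest with HISAT2 (2.0.5) and counted them per gene with featureCounts (1.5.0-p3), and the deposited values are these raw counts, not normalized. The submitters' processing notes list mm9, but 651 of 672 matched rows of the study's tables had the start and end of GRCm38, which was used with GENCODE vM21, where 54409 of 54532 identifiers had a symbol. Platelet samples carry PBMC as their cell type tag, so tissue was taken from source names and titles. Columns of the authors' comparisons were not used.

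Counts were analysed in R 4.3.3 with edgeR 4.0.16 (filterByExpr, TMM, quasi-likelihood F test, two-sided), each pair of groups fitted alone. A gene was called at an unadjusted P under 0.05, the criterion of the study, with Benjamini-Hochberg adjusted values beside it. The SE is the log2 fold change divided by the square root of F. Tissues were compared over 30 libraries with group as a covariate and called at an adjusted P under 0.05, and an interaction tested the difference of response. The methods were tested on simulated data. Counting error is small beside the spread between pools except for genes with few counts (C1qa, C1qb, C1qc, Ms4a7).

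Library values were given for the classical and nonclassical genes, Csf1r and Lyz2. They were also given for at most 3 genes per comparison within a tissue, those with the smallest unadjusted P under 0.05. Other genes of the list were given by mean, range or count, and of each further list at most 2 genes were named. C1qa and C1qb values beyond this rule were added after they were seen. The genes and lists were chosen with earlier results of these data known. Same-numbered libraries deviated together in PBMCs of S group and C group (correlations of 0.305 to 0.569 in 5 pairs), where a replicate block called 0 members, as without it. In every other comparison at least 1 pair stayed under the limit of 0.1 set for pairing. PBMCs came from the same blood as platelets, so libraries of both tissues may share mice, while the tissue and interaction fits took all 30 as independent.

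Alternatives were DESeq2 1.42.0, no filter, RLE size factors, voom (limma 3.58.1) with sample quality weights, a replicate block, all 3 groups in one fit, hemoglobin genes left out, a lymphocyte covariate and leaving out each library. Chosen after seeing the data were a neutrophil covariate, 3 PBMC libraries a group, library totals without TMM, a block of same-numbered libraries of a group in both tissues, and the left-out libraries of the interactions.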

Additional observations from a re-analysis of the deposited data

Results flagged for a closer look

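Of 105 groups of 5 libraries examined, 5 held a library far from the other 4 (the gap to the nearest one, as a share of the range, above Dixon's critical value), about the share that chance gives, 1 in 20. Ly6c2 was at 565 CPM in PBMC replicate 3 of S group, where the next value was 325 CPM. Cebpb was at 53.6 CPM in platelet replicate 3 of C group, next to 17.9 CPM. Lst1 was at 53.6 CPM in platelet replicate 1 of C group, next to 29.4 CPM. The summed neutrophil markers were at 3820 CPM in platelet replicate 1 of O group, next to 622 CPM, and at 3760 CPM in PBMC replicate 4 of S group, next to 986 CPM.

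The response differed between platelets and PBMCs by the interaction test at an unadjusted P under 0.05 for these genes, none of which passed an adjusted P of 0.05. For S group against O group the log2 change in platelets minus that in PBMCs was 1.09 for Csf1r, 0.98 for Cd68, 0.93 for Adgre1, 1.23 for Fn1, 1.03 for Ace, 0.87 for Clec4a1, 0.92 for Apoe, 1.61 for C1qb, 1.05 for Pld4 and −0.59 for Eno3. For S group against C group it was 0.63 for Ms4a6c, and for O group against C group −0.72 for Ace.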

How the results depend on the processing

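The numbers of members called moved by over 1.5 times under these settings, given with the share of all genes called. In platelets of S group against C group (5, 6.42%) they were 12 with no filter (11 higher, 7.72%), 16 with voom (15 higher, 18.2%), 2 with all 3 groups in one fit (both higher, 4.97%) and 8 with the neutrophil covariate (7 higher, 6.79%). The lymphocyte covariate gave 7, but with 6 lower in place of 1. In S group against O group (14, 13.9%) they were 4 with the lymphocyte (2 higher, 2.40%) and 24 with the neutrophil covariate (22 higher, 14.9%). In O group against C group (2, both lower, 4.79%) they were 10 with voom (6 higher, 7.35%), 6 with the replicate block (2 higher, 6.50%), 0 with the lymphocyte (1.77%) and 6 with the neutrophil covariate (all lower, 5.42%). In PBMCs of S group against O group (9, all lower, 12.2%) they were 17 with voom (16 lower, 16.9%), 19 with the block (17 lower, 13.8%) and 0 with the lymphocyte covariate (1.42%). In O group against C group (6, all higher, 11.9%) they were 13 with voom (17.1%), 10 with the block (12.2%) and 1 with the lymphocyte covariate (3.06%), all higher, and 10 with 3 libraries a group (9 higher, 6.40%).

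For the interactions, S group against C group (1, 5.38%) gave 4 with no filter (5.66%), 4 with the block by number (5.70%) and 6 with the block by group and number over both tissues (4.35%), all higher, and O group against C group (1, 6.59%) gave 2 with no filter (4.92%). No block moved another count by over 1.5 times.

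Outside PBMCs of S group and C group, the lowest correlation among the 5 same-numbered pairs was −0.281 to −0.0237 in the comparisons within a tissue, and between platelets and PBMCs it was −0.209 in C group, −0.165 in S group and 0.0842 in O group. The libraries that correlated best with their own number were 0, 0 and 4 of 5 in platelets (S group against C group, S group against O group, O group against C group), 4 and 1 of 5 in PBMCs (S group against O group, O group against C group), and 1, 1 and 4 of 5 between tissues (C group, S group, O group). A match of 4 of 5 is a hint from the data that these libraries were paired, which the labels do not state. In O group the same-numbered pools of platelets and PBMCs also held the same numbers of mice.

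Leaving out each library in turn gave, for S group against C group, S group against O group and O group against C group in this order, 3 to 13, 9 to 17 and 2 to 7 called members in platelets, 0 to 1, 5 to 11 and 4 to 9 in PBMCs, and 0 to 10, 6 to 18 and 0 to 4 for the interactions, with 34 to 35 between tissues. The shares of all genes called in the same fits were 4.14% to 11.4%, 9.60% to 16.0% and 3.47% to 7.93% in platelets, 2.13% to 3.93%, 9.05% to 18.0% and from 1191 of 14883 genes to 17.6% in PBMCs, 4.29% to 9.83%, 10.5% to 17.3% and 5.40% to 9.60% for the interactions, and 80.2% to 81.7% between tissues.

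Some log2 fold changes turned. With the lymphocyte covariate they came to −0.00 for Ms4a6c and −0.17 for Pld4 (platelets, S group against C group) and to −0.08 for Csf1r, −0.10 for Adgre1, −0.31 for Clec4a1 and −0.06 for Pld4 (platelets, S group against O group). Between tissues Lyz2, not called, came to 0.00 with no filter, 0.11 without hemoglobin genes and, as libraries were left out, to −0.12 to 0.20 (0.12 without platelet O group replicate 1), and Aif1, not called, to −0.02 to 0.23. With library totals in place of TMM, Lst1 came to −0.73 and Aif1 to −1.13, and Lyz2 was called lower in platelets. The cause of these changes was not tested. DESeq2 and RLE size factors moved no count by over 1.5 times, but single calls ended. Ms4a6c lost its call in platelets of S group against C group with DESeq2, RLE, the block and all 3 groups in one fit, C1qb with the block, and Lst1 and Pld4 with all 3 groups. In S group against O group Csf1r lost it with RLE, Clec4a1 with RLE, voom and all 3 groups, Treml4 with voom, the block and all 3 groups, and Cebpb with all 3 groups. In PBMCs Cebpb lost it without hemoglobin genes and, with Tyrobp, Spi1, Sirpb1c and Clec7a, with 3 libraries a group (S group against O group), and Fn1 with all 3 groups and Spi1 with 3 libraries a group (O group against C group). Among the interactions Ms4a6c lost it with RLE and Eno3 with RLE and no filter, and between tissues, by adjusted P, Gngt2 with DESeq2, RLE, no filter and without hemoglobin genes. The number of pools limits what can be seen, and the low counts of the C1q genes and Ms4a7 limit those genes further.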
